A study of Caenorhabditis elegans with 15 samples.

Results

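Ursolic acid (UA) larvae were compared here with larvae that received no treatment at all. The comparison used 10 of the 15 RNA sequencing libraries of the study, 5 from UA larvae and 5 from untreated larvae, chosen by the treatment that the labels give. All libraries came from whole animals of the wild-type N2 strain of Caenorhabditis elegans. Age-matched worms grew from L1 to L3 on Escherichia coli OP50 in 34 h, then spent 12 h with 50 µM UA, with the solvent dimethylsulfoxide (DMSO) or with neither, and were collected as L4 larvae. Each group held 5 independent replicates, and the replicate number, which the labels give as the batch, paired 1 UA, 1 DMSO and 1 untreated library. UA was added in DMSO, so the difference between UA and untreated larvae includes any change that came with the solvent. The plates with UA or DMSO carried heat-killed OP50 with a small live inoculum. The bacteria given to untreated larvae during the exposure were not stated in the sources used here. The 5 DMSO libraries were fitted together with the others and their values stand beside those of the main genes.

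UA is a pentacyclic triterpenoid of plants and reaches a larva as a foreign compound. Worms handle such compounds mainly in the intestine. Cytochrome P450 enzymes and short-chain dehydrogenases first modify the molecule, UDP-glucuronosyl- and glucosyltransferases (ugt genes) and glutathione S-transferases (gst genes) then attach a polar group, and transporters export the product. The same tissue secretes lysozymes, C-type lectins and CUB-like proteins towards ingested bacteria, digests them with cathepsin-like proteases and makes the yolk.

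The 15 libraries held between 12485842 and 27474535 reads assigned to genes, with medians of 21341483 for UA and 22892455 for untreated larvae, and the UA library of batch 5 was the smallest. Larvae of the same batch deviated together, with correlations of 0.793, 0.413, 0.718, 0.625 and 0.831 between the UA and the untreated library of batches 1 to 5, each over all tested genes after removal of the group means. The UA library of batch 4 stood apart. When it was left out, 396 genes passed the test in place of 147, and 55.1% of these 396 lay on the other side of the untreated library in batch 4, against 3.03% to 13.7% in the other batches. Genes enter this count by the choice to leave that library out. For several of the gene families whose counts moved with this library, though not for all, the counts are given below with and without it. The part of that library, of the read depth of batch 5 and of the solvent in the results was not tested.

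Levels are given as CPM, the reads of a gene scaled to a common library size, and differences as log2 fold changes from a fit that held treatment and batch together. Of 14037 genes with enough reads, 147 (1.05%) passed the quasi-likelihood test of edgeR at an adjusted p under 0.02, 68 higher (0.484%) and 79 lower (0.563%) in UA larvae. At an unadjusted p under 0.05 there were 1733 genes. Most changes were small. The median log2 fold change was 0.37 over the higher genes and -0.46 over the lower genes, beside 0.004 over all tested genes, and 4 higher and 13 lower genes changed more than 2-fold. In 138 of the 147 genes (93.9%) UA lay on the same side of untreated in all 5 batches, which held for 11.2% of all tested genes. The lowest and highest libraries of the groups did not overlap in 39 of the 147, 19 higher and 20 lower, and among all tested genes the groups did not overlap in 104 (0.741%). From the same fit, UA differed from DMSO in 38 genes (0.271%) and DMSO from untreated in 17 genes (0.121%). These contrasts share libraries and are set side by side only for single genes.

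The count of genes moved with single libraries. Without 1 library or 1 batch at a time it ranged from 71 to 396. It changed by more than 1.5 times without UA replicate 1 (84 genes), UA replicate 2 (96), UA replicate 4 (396), untreated replicate 1 (88), untreated replicate 2 (94), untreated replicate 3 (85) or untreated replicate 5 (90), as it did without batch 1 (71), batch 2 (79), batch 4 (378) or batch 5 (75). Of the 147 genes, 45 passed in all 15 of these fits, 18 higher and 27 lower. With the batch term removed 12 genes passed, and these were cyp-35A2, cyp-35A3, cyp-35A4, cyp-35C1, dhs-23, F12E12.11, F25D1.5, R09E12.9, ugt-22, F13H6.3, asp-14 and dod-24. Every gene named below as higher or lower without further remark passed in all 15 fits, and for the others the number of fits passed is given.

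**Figure D1:**
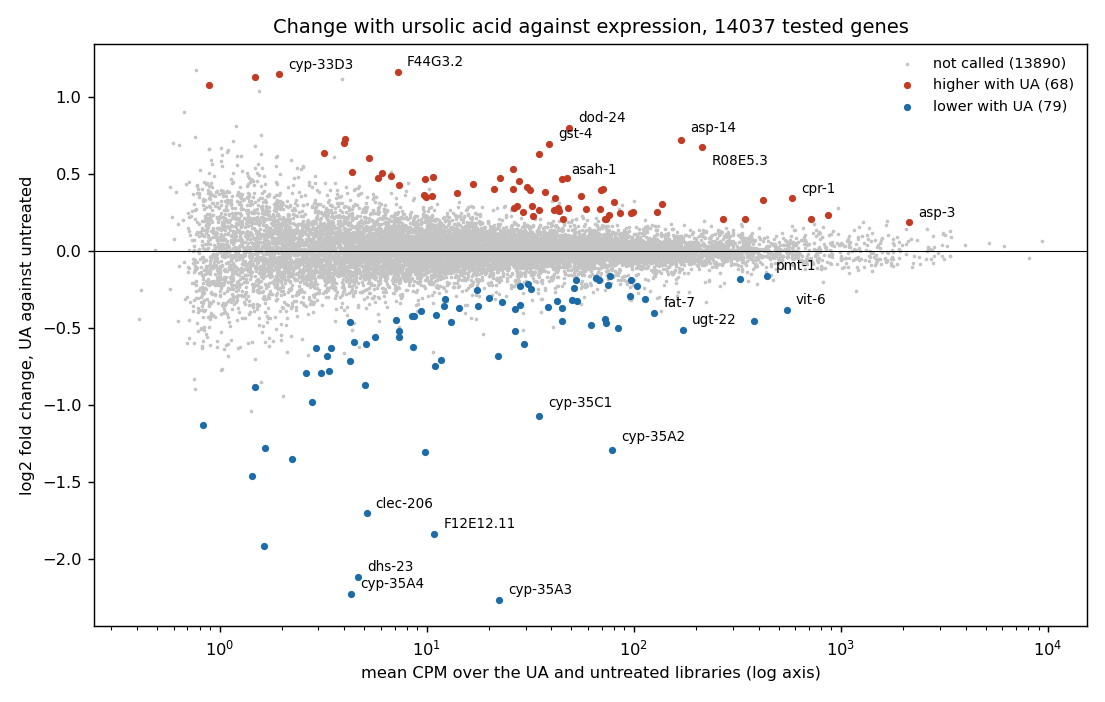
Log2 fold change of UA against untreated larvae (vertical axis) against the mean CPM over the UA and untreated libraries (horizontal log axis) for 14037 tested genes, with the 68 higher and 79 lower genes coloured and the main genes labelled. The largest changes were on the lower side, down to -2.27, and the higher side reached 1.17.

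The largest changes included decreases of P450 genes, which oxidise foreign and endogenous molecules. Of 59 tested P450 genes, 9 fell and 2 rose, with a median log2 fold change of -0.13. The cyp-35 subfamily, intestinal enzymes known to be induced by foreign compounds in the worm, held 5 of the 9. It has 10 members in the table, 8 of which were tested, and the 5 that fell did so in every fit that left out a library or a batch. Summed over the tested members, cyp-35 genes reached 187 to 296 CPM in untreated and 66.7 to 116 CPM in UA libraries.

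The steepest decrease was that of cyp-35A3, on chromosome V from 4022609 to 4024482 of the WBcel235 genome. Its level in untreated larvae of batches 1 to 5 was 33.1, 34.8, 38.8, 49.5 and 30.2 CPM, in DMSO larvae 40.8, 44.8, 44.9, 58.4 and 45.2 CPM, and in UA larvae 10.4, 10.4, 6.88, 5.1 and 5.19 CPM. UA and untreated larvae did not overlap, with a UA mean of 7.59 ± 2.66 (SD, n = 5) and an untreated mean of 37.3 ± 7.51. The fitted log2 fold change was -2.27 ± 0.154 (SE, adjusted p = 5.72e-08), which is 0.208 times the untreated level.

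Its neighbour cyp-35A4 had a lower level and a fold change of similar size. Untreated larvae had 5.37, 5.83, 7.34, 9.7 and 7.52 CPM and UA larvae 2.15, 1.75, 1.41, 1.05 and 0.943 CPM, again without overlap (log2 fold change -2.23 ± 0.187, adjusted p = 6.5e-07). The more abundant cyp-35A2 went from 101, 101, 111, 146 and 99.0 CPM to 59.5, 46.4, 39.1, 43.7 and 36.4 CPM (-1.30 ± 0.0971, adjusted p = 2.11e-07). For cyp-35C1 the untreated libraries had 41.8, 45.1, 51.6, 62.4 and 37.7 CPM and the UA libraries 28.4, 22.8, 20.8, 23.4 and 16.6 CPM (-1.07 ± 0.0911, adjusted p = 6.67e-07). Neither of these genes overlapped between the groups. The smallest decrease of the 5 was that of cyp-35A5, from 13.2, 15, 14.9, 19.9 and 10 CPM to 11.4, 9.77, 8.15, 9.79 and 4.87 CPM, where the groups overlapped because the untreated library of batch 5 lay below the UA library of batch 1 (-0.71 ± 0.0955, adjusted p = 0.00029). The remaining tested members did not pass, with log2 fold changes of -0.19 for cyp-35B1 (adjusted p = 0.718), -0.17 for cyp-35B2 (0.828) and -0.25 for cyp-35D1 (0.492).

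Per kilobase of exon, cyp-35A2 was the most abundant of the 5 in both groups, at 70.3 CPM per kilobase in untreated and 28.3 in UA larvae. It was followed by cyp-35C1 (31.1 and 14.6), cyp-35A3 (23.5 and 4.79), cyp-35A5 (8.45 and 5.1) and cyp-35A4 (4.61 and 0.942) in untreated larvae. In UA larvae cyp-35A3 had dropped below cyp-35A5. Against DMSO the same genes had log2 fold changes of -2.60, -2.54, -1.45, -1.23 and -1.07 in the order cyp-35A3, cyp-35A4, cyp-35A2, cyp-35C1 and cyp-35A5, and DMSO against untreated gave 0.34, 0.32, 0.15, 0.16 and 0.36. Members of the subfamily are close paralogs, and whether reads that map to several genes were counted was not stated in the sources used here, so reads may be divided between them in part.

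The other 4 P450 genes that fell were members of cyp-34A, cyp-25A and cyp-29A. The largest change among them was in cyp-34A10, a gene of low level, with 1.65, 1.56, 1.65, 3.05 and 2.51 CPM in untreated and 0.569, 0.243, 0.612, 1.17 and 1.26 CPM in UA larvae (-1.47, adjusted p = 0.000224, no overlap). Its neighbour cyp-34A9 had a log2 fold change of -0.52 (adjusted p = 0.000579), cyp-25A3 of -0.52 (0.000585) and cyp-29A3 of -0.56 (0.00286, 14 of 15 fits). These 3 were chosen for naming after their values were seen, as were the other genes marked so below.

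The P450 genes that rose were cyp-33D3 and cyp-36A1. For cyp-33D3 untreated larvae had 0.588, 0.904, 1.39, 1.89 and 1.3 CPM and UA larvae 2.56, 2.33, 1.6, 3.76 and 2.99 CPM, so the groups overlapped while UA was higher in each batch (1.15 ± 0.194, adjusted p = 0.00264). This call passed in 12 of 15 fits and was lost without batch 1 (adjusted p = 0.0249), batch 2 (0.0216) or batch 5 (0.0248). DMSO larvae were close to untreated larvae for this gene, with a log2 fold change of -0.25 (adjusted p = 0.85), and UA against DMSO gave 1.40 (0.00112). For cyp-36A1, known in the worm as a P450 that acts downstream of the hypoxia factor HIF-1, the untreated libraries had 7.54 to 8.99 CPM and the UA libraries 10 to 14.5 CPM, without overlap (0.47, adjusted p = 0.0013, named after its values were seen). Exons of cyp-36A1 overlap another gene on the opposite strand over 147 bases, and the strand setting of the counting was not given in the sources used here.

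Decreases of similar size occurred in other enzyme and secreted protein genes. The short-chain dehydrogenase gene dhs-23, on chromosome V from 15381219 to 15382271, had 8.72, 7.18, 8.38, 8.84 and 4.67 CPM in untreated, 7.49, 8.07, 7.0, 9.3 and 7.08 CPM in DMSO and 2.4, 2.48, 1.41, 1.21 and 1.18 CPM in UA larvae (-2.12 ± 0.168, adjusted p = 3.5e-07). F12E12.11 (now nta-1) went from 17.4, 18.5, 21.1, 16.2 and 12 CPM to 6.75, 6.22, 4.9, 2.71 and 3.22 CPM (-1.84 ± 0.148, adjusted p = 3.61e-07). The C-type lectin gene clec-206 went from 5.44, 9.89, 12.4, 6.22 and 5.31 CPM to 2.85, 2.92, 3.72, 0.971 and 1.49 CPM (-1.70 ± 0.151, adjusted p = 9.77e-07). In all of these the groups did not overlap, and the lowest UA value was that of batch 5 for dhs-23 and of batch 4 for F12E12.11 and clec-206. F25D1.5 had 11.5 to 17.6 CPM in untreated and 4.94 to 6.5 CPM in UA larvae (-1.31, adjusted p = 2.11e-07), and R09E12.9 had 2.32 to 2.82 and 0.389 to 0.848 CPM (-1.92, adjusted p = 3.51e-06), both without overlap. DMSO against untreated larvae gave differences of 0.06, -0.08, 0.07, 0.16 and 0.13 for dhs-23, F12E12.11, clec-206, F25D1.5 and R09E12.9.

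**Figure D2:**
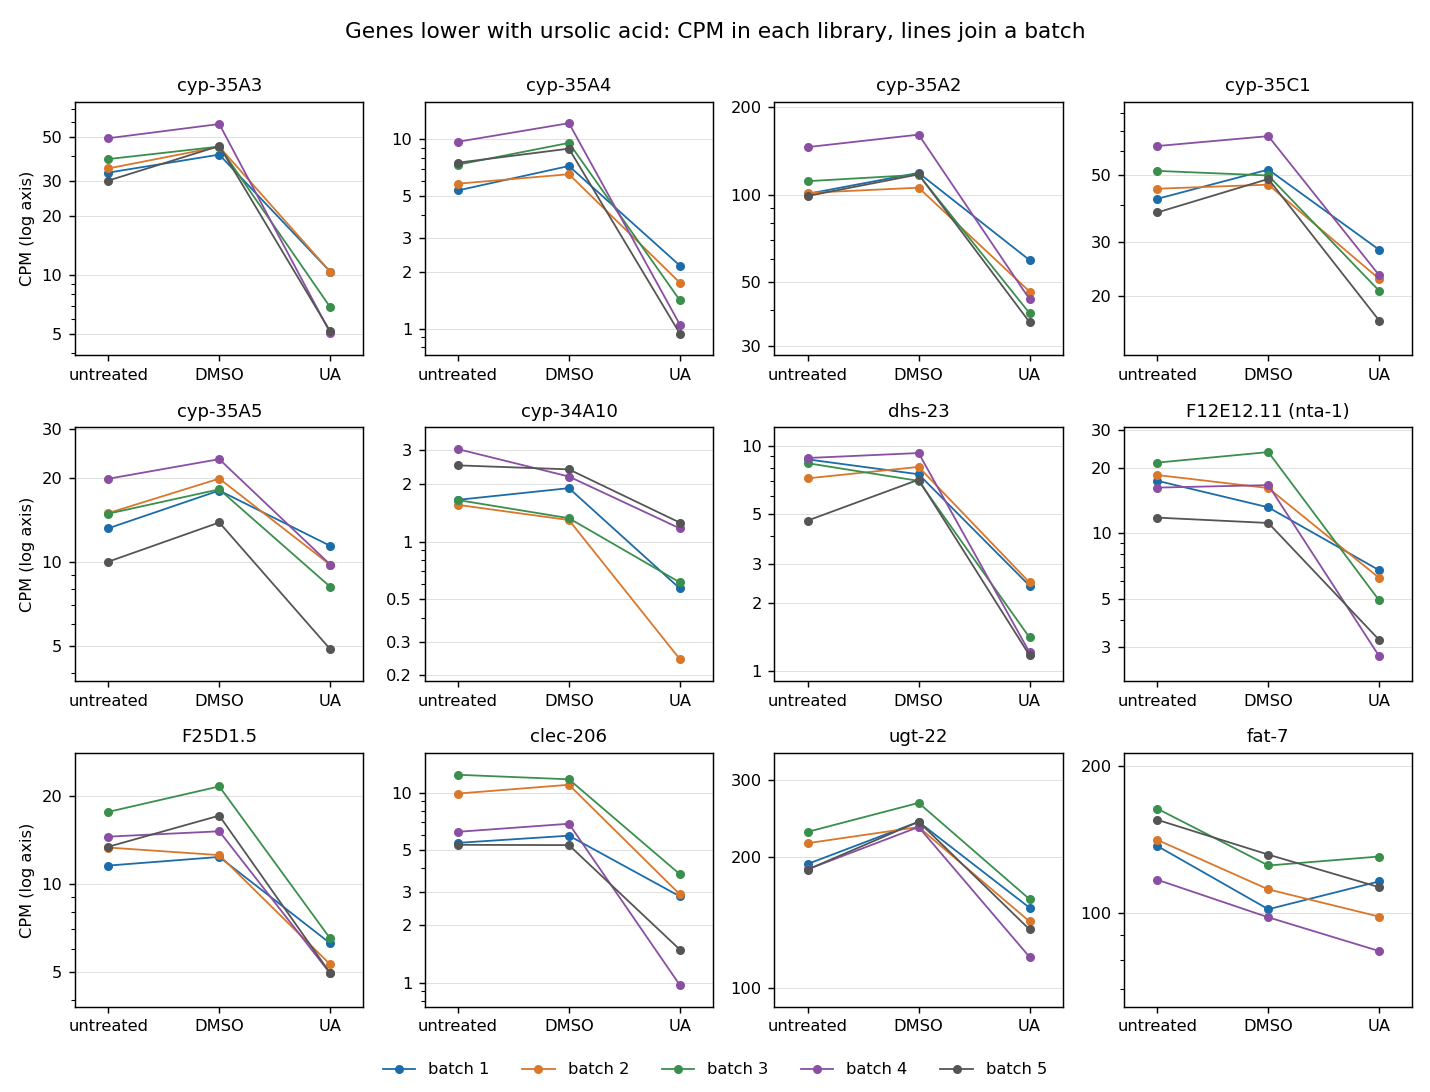
Levels in CPM (vertical log axes) of 12 genes that were lower in UA than in untreated larvae, in the 5 untreated, 5 DMSO and 5 UA libraries, with lines joining libraries of the same batch. For most panels the DMSO points sit near the untreated points and the UA points lie below both, as for cyp-35A3 with 30.2 to 49.5 CPM in untreated and 5.1 to 10.4 CPM in UA larvae, while for fat-7 DMSO lies near UA.

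Among the conjugating enzymes the ugt genes that passed were mostly lower and the gst genes that passed were all higher. Of 59 tested ugt genes 5 were lower and 1 higher, with a median of -0.02. The abundant ugt-22 had 193, 215, 228, 187 and 187 CPM in untreated, 241, 234, 266, 234 and 241 CPM in DMSO and 153, 142, 160.1, 118 and 137 CPM in UA larvae, so UA was lowest and DMSO highest (-0.51 ± 0.0461, adjusted p = 1.22e-06). Both other contrasts passed for this gene, with 0.27 for DMSO against untreated (adjusted p = 0.00983) and -0.78 for UA against DMSO (4.89e-09). Exons of ugt-22 overlap other annotated genes over 317 bases on the opposite and 67 bases on the same strand.

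The 1 higher ugt gene, ugt-1, had its highest level in DMSO larvae. Its values were 26.1, 26, 26.2, 39.4 and 20.6 CPM in untreated, 53.2, 48.8, 49.3, 75.2 and 44 CPM in DMSO and 41.0, 42.9, 42.9, 49.1 and 35.9 CPM in UA larvae. UA against untreated gave 0.63 ± 0.0595 (adjusted p = 2.39e-06), DMSO against untreated 0.97 (1.18e-08) and UA against DMSO -0.34 (0.00421). Besides ugt-22 the lower members were ugt-9 (-0.63, adjusted p = 0.000721), ugt-25 (-0.38, 0.00248, 14 of 15 fits), ugt-8 (-0.32, 0.00286, 13 of 15) and H23N18.4, now ugt-67 (-1.13, 0.0167, 2 of 15). DMSO against untreated was -0.30, -0.14, -0.31 and -0.20 in the same order, and of these ugt-8 passed (adjusted p = 0.0134). UA against DMSO was -0.33, -0.24, -0.01 and -0.93, and none passed (lowest adjusted p = 0.103). For H23N18.4, whose mean was 1.1 CPM in untreated larvae, the adjusted p reached 0.0994 when batch 1 was left out. Without UA replicate 4 the family had 4 higher and 6 lower members.

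Of 35 tested gst genes 4 rose and none fell, with a median of 0.03. The largest rise was in gst-4, the best known target of the oxidative stress regulator SKN-1 in the worm. Untreated larvae had 27.3, 43.3, 34.6, 20.1 and 24.6 CPM, DMSO larvae 35.8, 48.1, 48.5, 31.7 and 35.3 CPM and UA larvae 38.3, 57.9, 56.9, 40.3 and 47.5 CPM, with UA highest in every batch although the groups overlapped (0.70 ± 0.0676, adjusted p = 3.09e-06). DMSO against untreated was 0.43 (adjusted p = 0.00564), and UA against DMSO was 0.27 (0.0735). For gst-13 untreated larvae had 54.7 to 72.1 CPM and UA larvae 76.6 to 86.7 CPM, without overlap (0.40, adjusted p = 3.57e-05). DMSO against untreated was 0.25 for gst-13 (adjusted p = 0.0231), and UA against DMSO was 0.15 (0.147). The rises of gst-10 (0.21, adjusted p = 0.0184, 4 of 15 fits) and of gst-42, a zeta-class enzyme (0.21, 0.0171, 1 of 15), were at the margin of the test, and gst-42 did not pass in DESeq2 (0.0265). Without UA replicate 4, 3 gst genes passed, and without UA replicate 5, 2. Between UA and DMSO none of the 4 risen gst genes passed, and that contrast had 2 gst genes lower and 0 higher. Exons of gst-4 share 65 bases with dhs-12 on the same strand.

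Other genes of xenobiotic handling changed in smaller number. The cadmium-responsive gene cdr-4, a glutathione transferase-like gene, fell from 71.6 to 101 CPM in untreated larvae to 50.3 to 80.9 CPM in UA larvae (-0.47, adjusted p = 3.57e-05). The carboxylesterase gene F13H6.3 (now cest-33) had 64.2 to 76.7 CPM in untreated and 48.2 to 55.2 CPM in UA larvae without overlap (-0.48, adjusted p = 3.09e-06), and its relative C52A10.2 (now cest-35.2) gave -0.88 (0.0182, 3 of 15 fits). The electron carrier gene cytb-5.1, a cytochrome b5, gave -0.31 (adjusted p = 0.00183), and vem-1, a b5-like heme-binding protein gene, -0.24 (0.0102, 6 of 15). F13H6.3, cytb-5.1 and vem-1 were named after their values were seen. Of 29 tested short-chain dehydrogenase genes listed by a dhs name, dhs-23 fell and dhs-21 rose (0.26, adjusted p = 0.0108, 5 of 15). Members of that enzyme family under other names are not in this count. None of 32 ABC transporter genes and none of 17 antioxidant enzyme genes passed.

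Genes of fat and yolk metabolism that passed were lower. The fatty acid desaturase gene fat-7, which acts on stearoyl-CoA, had 137, 141, 164, 117 and 155 CPM in untreated, 102, 112, 125, 98 and 132 CPM in DMSO and 116, 98.3, 131, 83.6 and 113 CPM in UA larvae. UA against untreated was -0.40 ± 0.0501 (adjusted p = 0.000108) and DMSO against untreated -0.33 (0.00401), while UA against DMSO was -0.07 (0.547). The related fat-5, which acts on palmitoyl-CoA, had 31.2, 81.1, 58.1, 56.3 and 33.2 CPM in untreated and 27.5, 60.2, 41.9, 33.8 and 24.4 CPM in UA larvae, lower in each batch with wide overlap (-0.46, adjusted p = 0.00108). These were 2 of 16 desaturase and elongase genes, and 3 further members were higher without UA replicate 4. Of 60 acyl-CoA metabolism genes cpt-3, a carnitine palmitoyltransferase gene, was lower (-0.79, adjusted p = 0.00594, 7 of 15 fits), and without UA replicate 4 there were 5. With all libraries the share called in this list was 1.67%, beside 1.05% over all tested genes. The lipase-like lips-6 gave -1.35 (adjusted p = 0.0137) but passed in 6 of 15 fits, was lower in 4 of 5 batches and did not pass in DESeq2 (0.188). Its fold change was -0.90 without UA replicate 4 (adjusted p = 0.0249).

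All 6 vitellogenin genes, which encode the yolk lipoproteins, had negative log2 fold changes, and 2 of them passed. The level of vit-2 differed more between batches than between treatments, with 993, 407, 148, 447 and 147 CPM in untreated, 1176, 305, 105, 393 and 107 CPM in DMSO and 849, 305, 109, 294 and 97.5 CPM in UA larvae. UA was below untreated in every batch (-0.46 ± 0.0781, adjusted p = 0.00286), and the call was lost without batch 5 (0.0273). For vit-6 the untreated libraries had 1412, 563, 229.8, 629.6 and 220.2 CPM and the UA libraries 1223, 397, 205, 421 and 162 CPM (-0.38, adjusted p = 0.0129), and this call passed in 6 of 15 fits and not in DESeq2 (0.0277). The other members had -0.30 for vit-1 (adjusted p = 0.114), -0.54 for vit-3 (0.0277), -0.49 for vit-4 (0.226) and -0.31 for vit-5 (0.56). Yolk genes are switched on towards adulthood, and their summed level ranged from 432 to 2686 CPM in untreated and from 314 to 2304 CPM in UA larvae, highest in batch 1 of each group. The part of larval stage in these values was not tested.

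The study followed asah-1, the acid ceramidase gene that splits ceramide into sphingosine and fatty acid, after picking it from the UA and DMSO libraries. The UA libraries here are the same, so the rise of asah-1 here is no independent evidence. The paper also reported its rise with UA by quantitative PCR on separate samples and with fluorescent reporters. Untreated larvae had 35.5, 39, 38, 41 and 36 CPM of asah-1, DMSO larvae 33.4, 48.1, 44.9, 47 and 40 CPM and UA larvae 51.7, 55.7, 50.3, 51.1 and 53.3 CPM, and UA and untreated larvae did not overlap (0.47 ± 0.0578, adjusted p = 9.9e-05). DMSO against untreated was 0.16 (adjusted p = 0.458), and UA against DMSO was 0.30 (0.0164). Of 24 tested sphingolipid genes the only other one to pass was gba-4, a glucocerebrosidase-like gene, with 33.7 to 49.0 CPM in untreated and 37.5 to 53.4 CPM in UA larvae (0.26, adjusted p = 0.0161, 5 of 15 fits). The 22 that did not pass ranged from -0.85 for gba-2 (adjusted p = 0.0481) to 0.15, and the list's median was -0.01.

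The higher genes included genes of defence, digestion and sulphur amino acid metabolism. The CUB-like gene dod-24, named for lying downstream of the insulin pathway factor DAF-16, had 28.6, 33, 38.2, 40.8 and 37.5 CPM in untreated, 56.7, 46.9, 62.6, 57.7 and 66.9 CPM in DMSO and 56.3, 62.7, 74.2, 58.6 and 56.6 CPM in UA larvae. UA did not overlap untreated (0.80 ± 0.0749, adjusted p = 2.03e-06), DMSO against untreated was 0.71 (3.28e-05), and UA against DMSO was 0.09 (0.623). Of 48 tested genes of the infection response, dod and CUB-like list 5 rose and none fell. Besides dod-24 these were dod-22 (0.61, adjusted p = 0.00184), F08G5.6, now irg-4 (0.40, 0.0051, 9 of 15 fits), F35E12.5, now irg-5 (0.36, 0.0121, 6 of 15) and dod-17 (0.28, 0.0108, 5 of 15). DMSO against untreated was 0.30, 0.18, 0.28 and 0.29 in the same order (lowest adjusted p = 0.0233, dod-17). UA against DMSO was 0.31, 0.22, 0.08 and -0.02 (lowest adjusted p = 0.148, dod-22). The CUB-like genes C32H11.4 (0.73, adjusted p = 0.00506, 10 of 15) and F55G11.8 (0.47, 0.00115) also rose, the latter named after its values were seen. For F55G11.8 DMSO against untreated was 0.37 (adjusted p = 0.0303) and UA against DMSO 0.10 (0.568). The gene names refer to infection or to DAF-16, and no infection was part of the design.

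Other genes that act against or on bacteria changed in both directions. Of 12 lysozyme genes 2 passed, ilys-2 and lys-2. For ilys-2 the levels were 0.956, 1.16, 1.39, 0.687 and 0.346 CPM in untreated, 1.59, 3.36, 3.93, 2.52 and 2.19 CPM in DMSO and 0.854, 3.65, 2.69, 1.86 and 1.26 CPM in UA larvae, with UA above untreated in 4 of 5 batches (1.13, adjusted p = 0.0113, 5 of 15 fits). DMSO against untreated was 1.57 for this gene (adjusted p = 0.00108). The rise of lys-2 was 0.25 (adjusted p = 0.0195, 4 of 15). The count was 4 lysozyme genes without UA replicate 4 and 0 without UA replicate 5.

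Of 104 tested C-type lectin genes 5 rose and 5 fell. The higher members were clec-42 (0.70, adjusted p = 0.00189), clec-3 (0.48, 0.00884, 6 of 15 fits), clec-66 (0.27, 0.0108, 5 of 15), clec-265 (0.27, 0.00228, 14 of 15) and clec-65 (0.21, 0.0116, 6 of 15). The lower members were clec-206, clec-247 (-1.28, adjusted p = 0.00228, 13 of 15), clec-210 (-0.98, 0.0108, 7 of 15), clec-230 (-0.87, 0.0108, 8 of 15) and clec-169 (-0.46, 0.0137, 4 of 15). For clec-247 DMSO against untreated was -1.03 (adjusted p = 0.0338) and UA against DMSO -0.26 (0.683). Both clec-65 and clec-169 were named after their values were seen. In batch 2 clec-169 was not lower in UA than in untreated larvae (log2 difference 0.01). Over the 15 fits without a library or a batch the family gave 1 to 6 higher and 1 to 6 lower members, with 6 higher and 4 lower without UA replicate 4. The fold change of clec-230 was -0.63 without that library (adjusted p = 0.0262).

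Among the digestive genes the aspartic protease gene asp-14 had the smallest adjusted p of the comparison. It lies on chromosome X from 6444185 to 6446664. Untreated larvae had 114, 122, 146, 129 and 122 CPM, DMSO larvae 166, 155, 216, 190.3 and 167 CPM and UA larvae 185, 182, 252, 237 and 195 CPM, so that UA was highest in each batch (0.72 ± 0.0399, adjusted p = 2.9e-09). The other contrasts passed too, with 0.49 for DMSO against untreated (adjusted p = 1.18e-06) and 0.23 for UA against DMSO (0.00583).

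The cathepsin B-like gene cpr-1 had 417, 492, 561, 519.8 and 592 CPM in untreated and 599.7, 638, 653, 742 and 622 CPM in UA larvae, without overlap (0.34 ± 0.0587, adjusted p = 0.00286), and did not pass without batch 1 (0.0218) or batch 2 (0.0361). For cpr-1 DMSO against untreated was 0.28 (adjusted p = 0.0585) and UA against DMSO 0.07 (0.647). Its relative cpr-5 (0.24, adjusted p = 0.0185) passed with all libraries and in none of the 15 fits. The cathepsin D-like gene asp-3, the most abundant called gene here at means of 2001 CPM in untreated and 2275 CPM in UA larvae, gave 0.19 (0.017, 2 of 15). Of 22 listed protease genes these 4 rose and asp-17 fell (-0.42, 0.0184, 3 of 15). The protease counts were 2 higher and 1 lower without UA replicate 4, and 2 and 0 without UA replicate 5. Carboxypeptidase-like and lysosomal genes outside that list also rose. These were F13D12.6, now ctsa-1.2 (0.33, adjusted p = 0.00349, 12 of 15), Y40D12A.2, now ctsa-4.2 (0.25, 0.00671, 5 of 15), pcp-2 (0.32, 0.000503) and the DNase II gene nuc-1 (0.27, 0.00307, 11 of 15), of which all but F13D12.6 were named after their values were seen.

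F44G3.2 (now argk-1), an arginine kinase gene, had the largest rise of the called genes and lies beside cth-1. Its levels in batches 1 to 5 were 1.73, 8.29, 8.95, 2.62 and 2.12 CPM in untreated, 4.39, 9.99, 15.1, 4.84 and 4.86 CPM in DMSO and 7.76, 12.7, 14.8, 9.31 and 4.24 CPM in UA larvae. Batches 2 and 3 were high in every group, so the groups overlapped while UA was above untreated in each batch (1.17 ± 0.172, adjusted p = 0.00087). DMSO against untreated was 0.78 (adjusted p = 0.0941) and UA against DMSO 0.39 (0.286).

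Several genes of sulphur amino acid and hydrogen sulphide metabolism rose. Of these cth-1, cth-2 and sqrd-1 followed from the naming rule and the others were added after their values were seen, so the group is a description without a test. The cystathionine gamma-lyase gene cth-1 had 16.1, 30.3, 28.9, 19.1 and 14.1 CPM in untreated and 28.1, 41.8, 35.1, 28.8 and 20.1 CPM in UA larvae (0.53, adjusted p = 0.000938), and its paralog cth-2 gave 0.21 (0.00332, 8 of 15 fits). For cth-1 DMSO against untreated was 0.40 (adjusted p = 0.0349) and UA against DMSO 0.13 (0.468). The cyanoalanine synthase gene cysl-2 had 87.8 to 158 CPM in untreated and 117 to 177 CPM in UA larvae (0.31, adjusted p = 0.00264, 14 of 15). The sulphide:quinone oxidoreductase gene sqrd-1 gave 0.51 (adjusted p = 0.0071, 7 of 15), the cystathionine beta-lyase gene cbl-1 0.28 (0.00286, 13 of 15) and rhy-1, a regulator of HIF-1, 0.29 (0.0155, 3 of 15). Of 18 listed amino acid and one-carbon genes, cth-1 and cth-2 rose, and pmt-1, a phosphoethanolamine methyltransferase gene (-0.16, adjusted p = 0.0137, 1 of 15), and the tyrosine aminotransferase gene tatn-1 (-0.18, 0.0184, 3 of 15) fell.

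The methyltransferase-domain gene R08E5.3 (now rips-1) was higher in both treated groups. It had 156, 202, 179.7, 128 and 159.9 CPM in untreated, 245, 306, 302, 225 and 238 CPM in DMSO and 229, 321, 283, 264 and 215 CPM in UA larvae. Both treated groups lay above all untreated libraries, at 0.67 for UA (± 0.058, adjusted p = 7.22e-07) and 0.67 for DMSO (2.05e-06), and UA against DMSO had an adjusted p of 0.998. Exons of R08E5.3 share 74 bases with cysl-3 on the opposite strand. Its neighbour R08E5.1 gave 0.49 (adjusted p = 0.00395, 13 of 15 fits, named after its values were seen). For R08E5.1 DMSO against untreated was 0.58 (adjusted p = 0.00274) and UA against DMSO -0.09 (0.684).

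Transport and membrane genes passed in small number. The proton and myo-inositol transporter genes hmit-1.1 and hmit-1.2, neighbours on chromosome V that are known to be raised by hypertonic stress in the worm, both rose. For hmit-1.2 the levels were 24.3, 29.3, 31.2, 16.2 and 17.2 CPM in untreated and 33.3, 38.4, 35.1, 26.7 and 26.7 CPM in UA larvae (0.46, adjusted p = 0.00189), with the call lost without batch 5 (0.0248). For hmit-1.1 the fold change was 0.41 (adjusted p = 0.00262, 13 of 15 fits). DMSO against untreated was 0.36 for hmit-1.1 (adjusted p = 0.0302) and 0.31 for hmit-1.2 (0.123). UA against DMSO was 0.05 for hmit-1.1 (0.798) and 0.15 for hmit-1.2 (0.359). The SWEET-family sugar transporter gene swt-3 fell (-0.29, adjusted p = 0.00183). The choline kinase gene ckb-4 had 19.5 to 25.5 CPM in untreated and 26.5 to 33.6 CPM in UA larvae, without overlap (0.40, adjusted p = 0.00102, named after its values were seen). For ckb-4 DMSO against untreated was 0.35 (adjusted p = 0.0126) and UA against DMSO 0.06 (0.724).

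**Figure D3:**
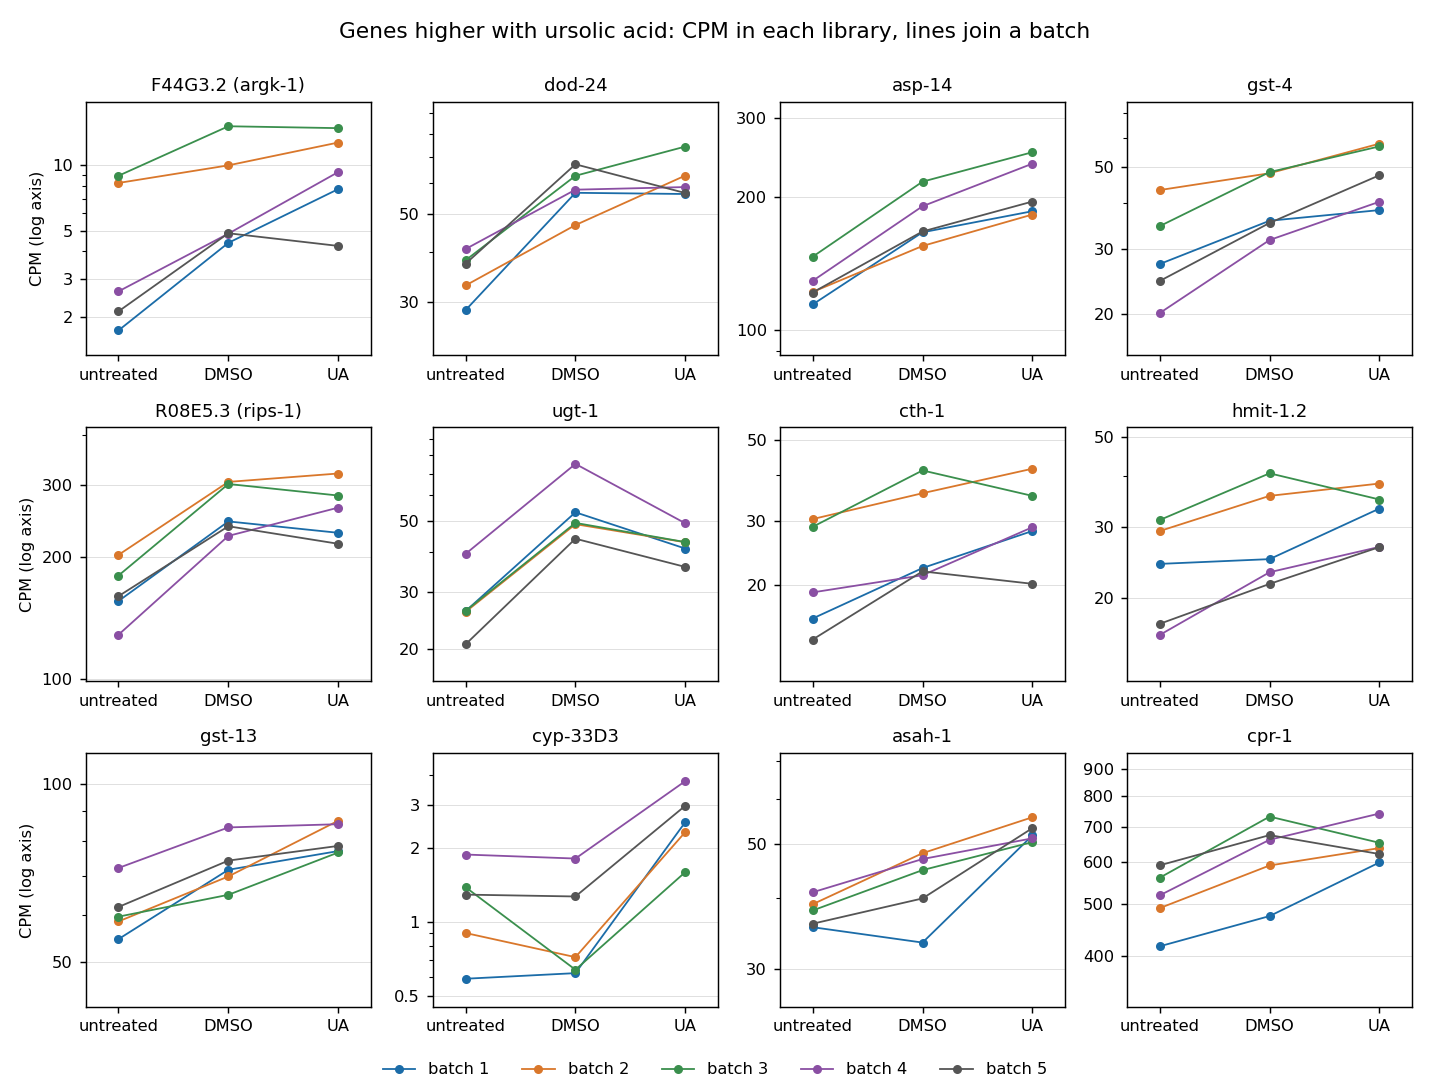
Levels in CPM (vertical log axes) of 12 genes that were higher in UA than in untreated larvae, in the 5 untreated, 5 DMSO and 5 UA libraries, with lines joining libraries of the same batch. DMSO lies near UA for dod-24 and R08E5.3, above UA for ugt-1 (mean 54.1 CPM), near untreated for cyp-33D3, and between the groups for asp-14 and gst-4.

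Regulators, signals and stress genes that passed were few. The share of tested members called was 1.08% for nuclear receptor, 1.85% for chaperone and 4.76% for hedgehog-related genes. It was 1.31% for collagen and 2.04% for transthyretin-like genes, beside 1.05% over all tested genes. Of 185 nuclear receptor genes nhr-74 (-0.78, adjusted p = 0.00432, 13 of 15 fits) and nhr-42 (-0.31, 0.0109, 6 of 15) fell, and without UA replicate 4 the counts were 5 higher and 7 lower. The nuclear receptor gene sex-1, which lies outside the nhr-named list and was named after its values were seen, rose (0.35, 0.0134, 3 of 15, and 0.0285 in DESeq2). Of 54 chaperone genes only the small heat shock protein gene hsp-12.3 passed, from 4.47 to 5.85 CPM in untreated to 2.45 to 3.94 CPM in UA larvae without overlap (-0.72, adjusted p = 0.00194). Of 63 hedgehog-related genes wrt-8 (-0.75, 0.0111, 7 of 15, and 0.0971 in DESeq2), grd-11 (-0.68, 0.00766, 7 of 15) and grd-2 (-0.25, 0.014, 3 of 15) fell. DMSO against untreated was -0.43 for wrt-8 (adjusted p = 0.401), -0.75 for grd-11 (0.012) and -0.24 for grd-2 (0.0581). UA against DMSO was -0.31 for wrt-8 (0.367), 0.07 for grd-11 (0.922) and -0.01 for grd-2 (0.966). Without UA replicate 4 the fold change of wrt-8 was -0.47 (adjusted p = 0.0152), and 2 hedgehog-related genes were higher and 2 lower. The moulting-linked genes mltn-1 and mltn-3, named after their values were seen, both gave -0.37 (adjusted p = 0.0138 and 0.017, 3 and 4 of 15 fits). In batch 4 mltn-1 was higher in UA than in untreated larvae, by a log2 difference of 0.13. Without UA replicate 4 the fold changes were -0.50 for mltn-1 (adjusted p = 2.47e-07) and -0.43 for mltn-3 (0.00212). DMSO against untreated was -0.36 for mltn-1 and -0.29 for mltn-3, and UA against DMSO -0.01 and -0.08. Of 153 collagen genes col-149 rose (0.21, adjusted p = 0.0146, 3 of 15) and col-150 fell (-0.33, 0.0101, 7 of 15). Of 49 transthyretin-like genes ttr-51 fell (-0.22, 0.0137, 3 of 15).

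Among the genes with the largest rises were also F01D5.3 (0.63, adjusted p = 0.019, 2 of 15 fits), C08F11.1 (0.51, 0.00624, 9 of 15) and the pseudogene C14C6.12 (1.08, 0.0184, 3 of 15), and among the abundant ones T21H3.1 (0.21, 0.0101, 2 of 15).

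Over 41 gene lists, 70 of the 147 called genes had a place in a list and 77, 37 higher and 40 lower, in none. The share of tested members called was 18.6% for P450 genes, 62.5% within cyp-35, 10.2% for ugt genes, 11.4% for gst genes, 9.62% for C-type lectins and 22.7% for the listed proteases, beside 1.05% over all tested genes. No member passed among 79 ribosomal protein, 33 proteasome, 24 histone, 116 neuropeptide, 153 F-box, 70 sperm, 28 oocyte and eggshell, 60 moulting protease, 21 saposin-like, 17 carbohydrate metabolism or 16 lipid-binding genes. Without UA replicate 4 there were calls in some of these lists, for 3 F-box, 1 oocyte and eggshell and 1 lipid-binding gene on the higher side, 2 carbohydrate genes on the lower side and 1 moulting protease gene on each side, and 1 ABC transporter gene was higher. Over the 15 fits without a library or a batch, up to 3 ribosomal protein genes were higher and up to 1 sperm gene was lower, up to 8 collagen genes were lower, and the infection response list gave 2 to 5, gst genes 2 to 3 and the listed proteases 1 to 3 higher members. The lists were chosen with results of these data known, so these shares describe the lists and carry no test.

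**Figure D4:**
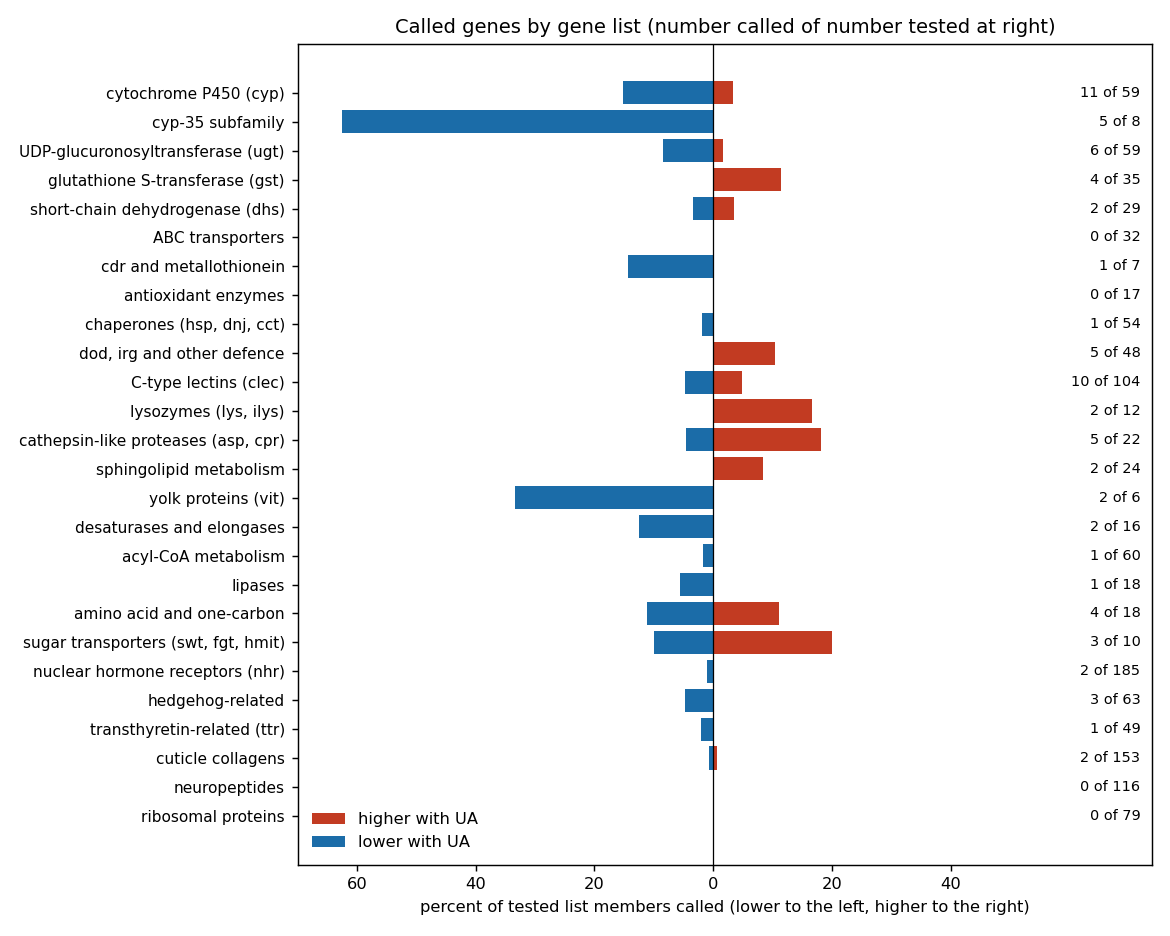
Share of tested genes called higher or lower in UA against untreated larvae (horizontal axis, percent of the tested members) for part of the gene lists, with the number called of the number tested at the right. The lists left out had no calls, apart from vit-2 among the genes of adult animals. The cyp-35 subfamily reached 62.5% with 5 lower of 8, gst genes had calls on the higher side alone, and C-type lectins had 5 on each side.

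Defining genes of the main tissues were present in every library, and none passed the test. Of 6 intestinal, 5 hypodermal, 5 muscle, 6 neuronal and 6 germline marker genes, the log2 fold changes lay between -0.09 and 0.10 with a lowest adjusted p of 0.237. Summed intestinal markers reached 2218 to 2736 CPM in untreated and 2276 to 2751 CPM in UA larvae, hypodermal markers 993 to 1195 and 986 to 1203 CPM, and germline markers 1324 to 1665 and 1242 to 1649 CPM. Muscle markers summed to 11544 to 14018 CPM in untreated and 12215 to 13328 CPM in UA larvae, and neuronal markers to 207 to 244 and 199.7 to 230.4 CPM. Of 4 genes of adult animals vit-2 passed, and their sum, most of it vit-2, ranged from 185 to 1391 CPM in untreated and from 135 to 1203 CPM in UA larvae. The yolk receptor gene rme-2 had a positive fold change and was higher in 5 of 5 batches (0.15, adjusted p = 0.179), while col-19 gave -0.25 (0.409). In RNA from whole larvae, fewer cells of a type and less RNA per cell cannot be told apart.

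More of the called genes lay on chromosome V than on any other chromosome. It held 2721 tested genes, 19.4% of all, and 26 of the 68 higher genes (38.2%) and 41 of the 79 lower genes (51.9%), so 2.46% of its tested genes were called. The share was 1.17% on chromosome IV, 0.91% on X, 0.631% on II, 0.428% on I and 0.405% on III. Of the 147 genes, 36 lay in 15 runs of called genes spaced by at most 20 kb, and 10 of the runs moved in 1 direction. On chromosome V the 3 tested genes F22B8.7, cth-1 and F44G3.2 between 16094584 and 16105952 all rose, and ugt-9, H23N18.4 and ugt-8 between 4896048 and 4905942 all fell. The pairs cyp-34A9 and cyp-34A10 (3968134 to 3972991) and cyp-35A3 and cyp-35A4 (4022609 to 4033446) fell together on the same chromosome. On chromosome IV the CUB-like genes F55G11.8, dod-22 and dod-17 rose between 12962808 and 12978343, 3 of 5 tested genes there, and C32H11.4 and dod-24 between 12921264 and 12941354, 2 of 4. Genes in such runs are often paralogs and are not independent. Of the 147, 146 were found in the annotation by identifier, 38 of them shared exon bases with a gene on the opposite strand and 10 with a gene on the same strand.

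The changes were seen across batches. The median log2 difference of the 68 higher genes was 0.35, 0.45, 0.28, 0.38 and 0.33 in batches 1 to 5, and that of the 79 lower genes -0.44, -0.44, -0.47, -0.58 and -0.46. Batch 4 had the largest difference for 57 of the 147 genes, and batches 1, 2, 3 and 5 for 21, 40, 14 and 15. UA lay on the other side of untreated for 1, 3, 1, 4 and 0 of these genes in batches 1 to 5. The test itself favours genes that move alike in all batches.

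**Figure D5:**
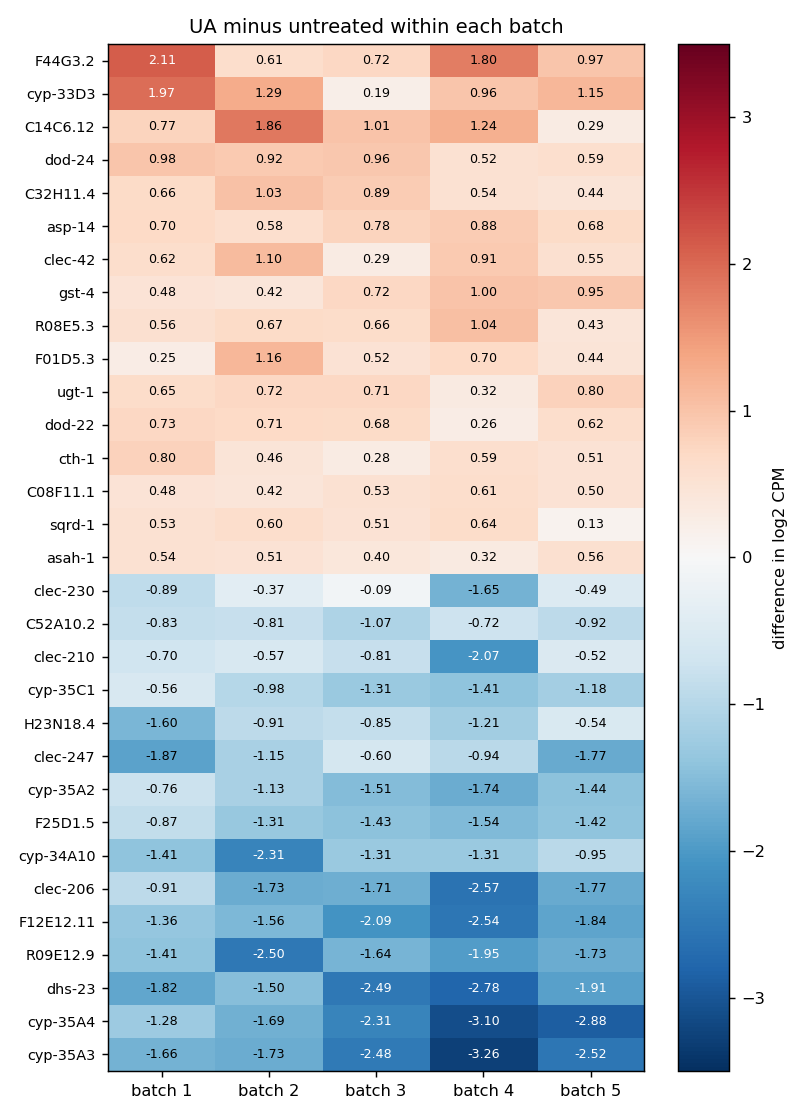
Difference between the UA and the untreated library of the same batch in log2 CPM (colour) in batches 1 to 5 (columns), for asah-1 and for the 15 largest and the 15 smallest log2 fold changes among called genes with the same sign in all 5 batches. That selection fixes the agreement in sign and leaves out ilys-2 and lips-6, and the deepest colours are those of cyp-35A3, cyp-35A4 and dhs-23.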

How the data were processed

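Whole N2 larvae were sequenced in 15 libraries, 5 each from untreated, DMSO and UA larvae. The authors deposited 1 table of raw counts of reads per gene, for 20541 genes, with no normalization. The submitters' processing notes name STAR 2.5.2b, featureCounts 1.5.2 and the WBcel235 genome. The strand setting and the treatment of reads with several matches were not given in the sources used here. The total count per library ranged from 12485842 to 27474535 and sets the precision of low genes.

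Genes with at least 10 counts in 1 library and a CPM of at least 1 in 3 libraries were kept. All 15 libraries were fitted with edgeR 4.0.16 (R 4.3.3), using TMM factors, trended dispersions, treatment and batch as terms and the quasi-likelihood test, with Benjamini-Hochberg adjustment over all 14037 tested genes. A gene was called at an adjusted p under 0.02. The SE of a log2 fold change is the fold change over the root of its F statistic, without sign. The differences within a batch used log2 CPM with a prior count of 2. Batch is given by the replicate number in the labels, and each UA library correlated best with the untreated library of its own number.

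Named genes were the 15 called genes with the largest and the 15 with the smallest log2 fold change that had the same sign in all 5 batches, the 5 most abundant called genes in each direction, asah-1 and up to 6 called members of each list, with every member of the sphingolipid, yolk and marker lists considered. Members, lists and this rule were chosen with earlier results of these data known. Current symbols came from a reference list of gene names, which held 19587 of the 20541 identifiers. Positions came from the WBcel235 annotation. Exon lengths per gene were those of its merged exons. Promoter motifs were not searched.

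Alternatives were RLE factors, the edgeR 4 form of the quasi-likelihood fit, no filter beyond 1 count, 10 counts in every library, a fit of the 10 UA and untreated libraries alone, no batch term, an adjusted p of 0.05, DESeq2 1.42.0 and leaving out each replicate of UA, each of untreated larvae and each batch. The scripts were tested on simulated data. Figures were drawn with matplotlib 3.10.9.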

Additional observations from a re-analysis of the deposited data

Results flagged for a closer look

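For each named gene the 5 untreated and the 5 UA libraries were examined for 1 library far from the other 4, by Dixon's criterion with a limit of 0.71. Of 218 groups 14 met it, where chance alone gives about 1 in 20, or 10.9.

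The yolk genes accounted for 5 of the 14, all in batch 1. The UA library of batch 1 had 849 CPM of vit-2 (the other 4 had 97.5 to 305), 1223 CPM of vit-6 (162 to 421), 19.1 CPM of vit-4 (0.943 to 5.1) and 117 CPM of vit-5 (3.69 to 23.5). The untreated library of the same batch had 134 CPM of vit-5 (2.52 to 32.8).

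F08G5.6 was high in batch 3 of both groups, at 101 CPM in the untreated library (the others had 45 to 57.3) and 145 CPM in the UA library (56.7 to 69.8). The untreated library of batch 4 was high for 2 P450 genes, at 146 CPM for cyp-35A2 (99 to 111) and 51.5 CPM for cyp-34A9 (25.7 to 27.5). In UA batch 5, the shallowest library, cyp-25A3 was at 8.49 CPM (4.88 to 5.91) and Y40D12A.2 at 127 CPM (77.3 to 91.2). The untreated library of batch 5 had 6.09 CPM of sqrd-1 (4.74 to 4.91) and 205.95 CPM of cth-2 (254 to 267), and that of batch 2 had 1.91 CPM of F01D5.3 (2.57 to 2.74).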

How the results depend on the processing

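Against 147 genes (68 higher, 79 lower), 140 were called with RLE factors, 148 with the edgeR 4 fit, 138 with 10 counts in every library, 192 with no filter, 213 at an adjusted p of 0.05 and 154 with DESeq2, and of these 137, 146, 138, 147, 147 and 134 were among the 147. The fit of the 10 UA and untreated libraries alone called 79 (34 higher, 45 lower), 77 of them shared. Without the replicate block, that is without batch, 12 genes were called (2 higher, 10 lower, 398 at an unadjusted p under 0.05), so the higher share was 16.7% in place of 46.3%. The same change left 10 genes between UA and DMSO in place of 38, and 0 between DMSO and untreated in place of 17. Those contrasts gave 71 and 35 genes with no filter, 77 and 30 at an adjusted p of 0.05 and 61 and 26 with DESeq2. Over the 15 fits without 1 replicate or 1 batch the count ranged from 71 to 396, with 28 to 150 higher and 38 to 254 lower, and from 17 to 162 for UA against DMSO and 9 to 41 for DMSO against untreated. Without UA replicate 4 there were 150 higher and 246 lower genes, 133 of them among the 147. Of the other 263, 214 lay on the other side of untreated in batch 4, and the cause was not tested.

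Of 104 called genes named in the text or considered for it, 37 passed in all 15 of these fits, 95 passed in DESeq2 and 12 without the batch term. No log2 fold change changed sign in 2500 recomputed values. Most of these genes were chosen because they passed in the main fit. The alternatives reuse its libraries, so agreement in sign was largely fixed in advance. Fold changes of genes near 1 CPM, such as H23N18.4, C14C6.12 and ilys-2, rest on few reads, and depth limits them most in UA batch 5.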
